A study of Mus musculus with 2 samples.

Results

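Fatty acid synthesis and desaturation were followed through 10 genes: Acly, Acaca, Mid1ip1, Fasn, Elovl6, Scd1, Scd2, Fads1, Fads2 and Srebf1. They were picked by name, as the main enzymes of the pathway with an activator of acetyl-CoA carboxylase and a lipogenic transcription factor, and every probe whose gene name or synonym was one of them was taken. This gave 15 of the 39429 probes on the array and 10 of its 31709 gene names. RNA of Lamtor1 knockout (KO) mouse CD4+ T cells was hybridised with RNA of wild type (WT) CD4+ T cells on whole-genome 2-colour arrays. The labels describe spleen CD4+CD62L+ naive T cells of C57BL/6J mice, cultured for 5 days with plate-bound anti-CD3, anti-CD28, IL-2 (50 ng/ml) and TGFβ (1 ng/ml), in both genotypes. The extraction text speaks of naive cells, so whether the RNA came before or after culture is not settled by the labels. The age of the mice, the way Lamtor1 was deleted and any Cre driver are not given in the sources used here.

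Each genotype was represented by 1 RNA extract, hybridised a second time after exchange of the dyes. KO RNA was in Cy5 on array 1 and in Cy3 on array 2. All values below are log2 ratios of KO over WT, the mean of both arrays, with the SD of the 2 arrays as a technical error only. No test between genotypes was possible, and a gene was called lower or higher where both arrays showed a difference of 2-fold or more to the same side, called the rule of size below. A probe counted as measured when 1 RNA or both gave a spot well above background on array 1 and on array 2, which held for 14 of the 15 probes and, taking the brightest probe of each gene, for all 10 genes and 14874 genes overall. Over those genes the median technical SD was 0.11, and the arrays correlated at r = 0.939 (Pearson, a correlation across genes, whose values are not independent). The targeted gene Lamtor1 was at −1.97 on array 1 and −1.93 on array 2 (−1.95 ± 0.03). In bulk RNA, fewer cells of a type and less RNA per cell cannot be told apart.

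Cells build fatty acids from citrate that leaves the mitochondrion. ATP citrate lyase (Acly) turns it into acetyl-CoA, acetyl-CoA carboxylase (Acaca) makes malonyl-CoA, and fatty acid synthase (Fasn) assembles palmitate, which Elovl6 lengthens to stearate. Stearoyl-CoA desaturases (Scd1, Scd2) place the first double bond, while Fads1 and Fads2 act on polyunsaturated chains, and the transcription factor SREBP-1, product of Srebf1, drives many of these genes. Activated T cells are known to switch this pathway on as they grow and divide. The Lamtor1 product is a subunit of Ragulator, the lysosomal complex that takes part in recruiting mTORC1.

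The probes are 60 bases long. The sequences below are the first 30 bases, 5′ to 3′, of the probes on which the largest differences rest, and 2 Acaca probes are shown because they are nearly one sequence, with the capitals marking the part of their common run that falls within these 30 bases.
Scd2, chr19:44381024-44381083 (mm9, plus strand), transcript position 5122: acatttggggatcctctgcagaggagtatt
Scd1, chr19:44469387-44469446 (mm9, minus strand), transcript position 4330: actcctgggctaagtatctgacagtctcac
Mid1ip1, chrX:10296703-10296762 (mm9, plus strand), transcript position 1933: gtatcgtatggagaatgatgaagggctcca
Elovl6, chr3:129341248-129341307 (mm9, plus strand), transcript position 5785: cctaggccctaaacccatattcagagggaa
Acaca, chr11:84215093-84215152 (mm9, plus strand), transcript position 8971: gCTTCAGTCCAATGCACTCTTCTCACGTTT
Acaca, chr11:84215094-84215153 (mm9, plus strand), position 2832 of a second transcript record: CTTCAGTCCAATGCACTCTTCTCACGTTTT
The Scd1 and Scd2 probes share no run longer than 6 bases and match at no more than 21 of 60 bases at any offset. None of the 15 probes shares a run of 20 bases with a probe of another gene.

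All 15 probes read below 0 on both arrays, and 3 of the 10 genes were called lower in KO: Scd2, Mid1ip1 and Elovl6. None was called higher. Counted over probes, 4 of the 15 were called lower and 0 higher, against 6.32% and 2.33% of all measured probes. Of all 14874 measured genes, 6.88% were called lower and 2.46% higher. Of those genes, 44.3% were below 0 on both arrays. The median over the 10 genes was −0.91, against −0.02 over all measured genes, and it was −0.86 without Scd2. Fads2, whose ratio is only a bound because its KO signal was at background, lies at the middle of the order, and with it at its bound these medians were −0.83 and −0.71. The median was −0.81 on array 1 and −1.01 on array 2. Ordered from the lowest ratio of all 14874 genes, Scd2 was number 2, Mid1ip1 number 44 and Elovl6 number 466. Acaca (933) and Scd1 (1241) came next, and Fads1 (2899), Acly (3735), Fasn (4303) and Srebf1 (4926) lay closer to the middle. Fads2 has no exact place in that order.

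**Figure D1:**
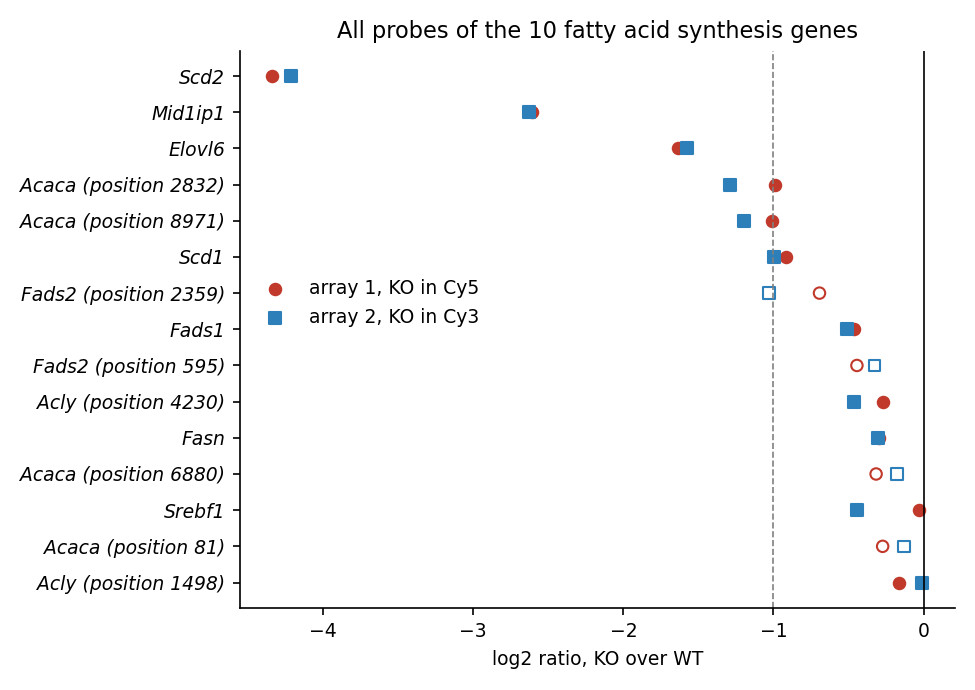
Log2 ratio of KO over WT (horizontal axis) for each of the 15 probes of the 10 genes (vertical axis), with 1 symbol per array and open symbols where the KO signal was not well above background on either array. Scd2 has a mean of −4.27 and Srebf1, the brightest-probe gene nearest to 0, a mean of −0.24.

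Scd2, the desaturase isoform of most mouse tissues outside the liver, had the largest difference of the 10 genes. Its normalized log2 signal was 13.79 in WT and 9.45 in KO on array 1, and 13.76 in WT and 9.55 in KO on array 2. Both WT readings were above both KO readings, and the KO signal, although 19.4-fold lower, was still well above background on both arrays. The log2 ratios were −4.34 and −4.21, a mean of −4.27 ± 0.09.

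Scd1, the isoform best known from liver and fat, was a dim probe in both RNAs. Its normalized log2 signal was 8.0 in WT and 7.08 in KO on array 1, and 8.13 in WT and 7.13 in KO on array 2. The KO readings again lay below the WT readings. The ratios were −0.92 and −0.99, a mean of −0.96 ± 0.05, or 1.94-fold lower, just short of the 2-fold rule on both arrays.

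The difference between the isoforms was larger than the technical spread. Scd2 was lower than Scd1 by a further −3.42 on array 1 and −3.22 on array 2 in log2 ratio, a mean of −3.32 ± 0.14, so that its fold was 9.97 times that of Scd1. The raw KO reading of the Scd1 probe was 133 over a local background of 43 on array 1 and 90 over 36 on array 2. The size of the difference moved with the processing. With the scanner software's processed signals Scd1 was at −1.56 and Scd2 at −4.35, and the difference was −2.79. It was −3.02 with an offset of 1, −3.24 with no background subtraction and −3.68 with median centring. In each of these settings Scd2 had the lower ratio on both arrays. The probes measure ratios, and their signals do not rank the isoforms by abundance.

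**Figure D2:**
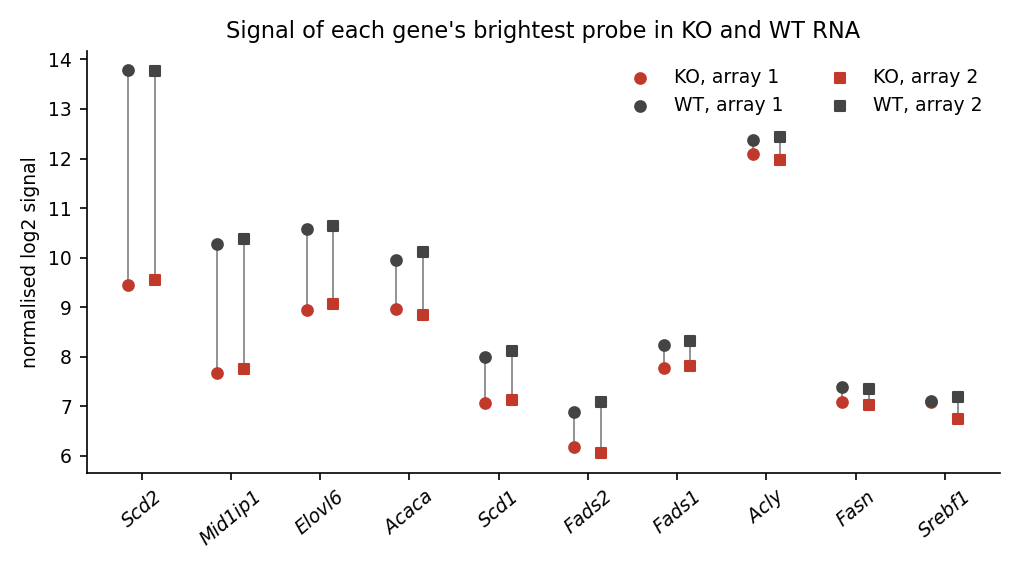
Normalized log2 signal (vertical axis) in WT and KO on each array for the brightest probe of each of the 10 genes, with lines joining WT to KO of one array. The steepest line belongs to Scd2, from 13.79 to 9.45 on array 1, and levels are comparable within a gene and not between genes.

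The 4 mouse Scd genes lie side by side on chromosome 19, and the Scd1 and Scd2 probes are 88.4 kb apart. Scd3, a desaturase of skin and the Harderian gland, had 1 probe that was measured, at chr19:44318249-44318308 (mm9), with a ratio of 0.63 on array 1 and 0.57 on array 2 (0.60 ± 0.04). It was thus on the other side of 0 from both Scd1 and Scd2. Another Scd3 probe, whose accession list also names the Scd1 transcript, was at −0.29 and not measured. The last Scd3 probe, at transcript position 1666, read 0.02 and 0.01 and was not measured either, so the Scd3 ratio rests on 1 probe. Scd4 was not measured.

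Within 250 kb of the Scd1 or Scd2 probe, 5 further genes were measured. Bloc1s2, which encodes a subunit of the lysosome-related organelle complexes BLOC-1 and BORC, was called lower at −1.51 and −1.70 (−1.61 ± 0.13), with its probe 167.2 kb before that of Scd2. Chuk, the IκB kinase alpha subunit, was at 0.17, Cwf19l1 at −0.05, Ndufb8, a subunit of respiratory complex I, at −0.43 and Hif1an, an asparagine hydroxylase of HIF, at −0.08. No other measured gene of the window had a ratio as low as that of Scd2. With Scd2 at number 2 of all 14874 genes, that was nearly settled beforehand.

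**Figure D3:**
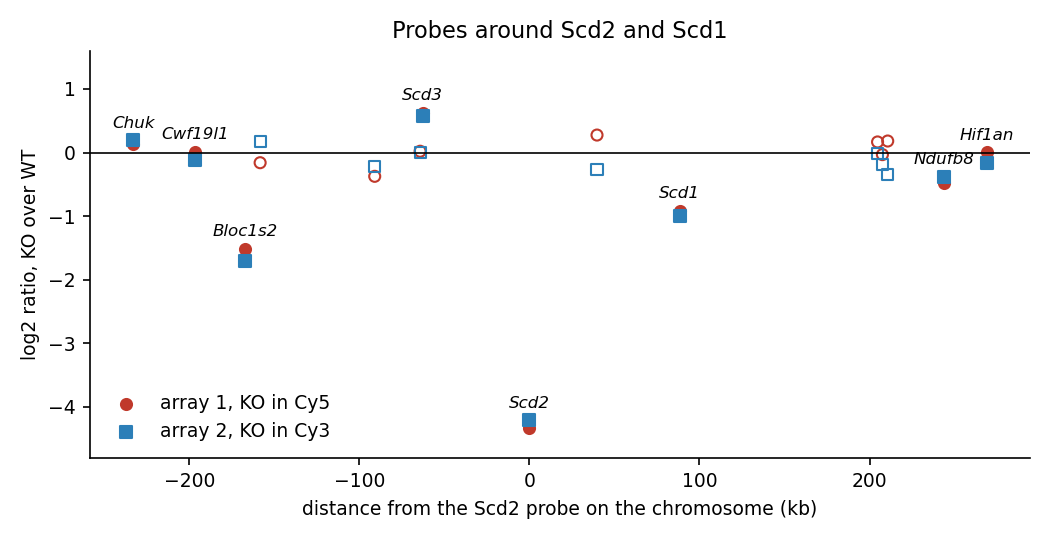
Log2 ratio of KO over WT (vertical axis, 1 symbol per array) against the distance from the Scd2 probe in kb (horizontal axis). Open symbols mark probes that were not measured. Scd2 (mean of both arrays −4.27) is the lowest, and the nearest measured probes on either side are those of Scd3 (mean 0.60) and Scd1 (mean −0.96). The Scd4 probe, not measured, lies between Scd2 and Scd1.

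Fads1, the delta-5 desaturase, had a normalized log2 signal of 8.24 in WT and 7.77 in KO on array 1, and 8.33 and 7.82 on array 2. The KO readings were lower on both arrays by a small margin, −0.47 and −0.51 (−0.49 ± 0.03). Fads2, the delta-6 desaturase, had 2 probes, and in both the KO signal was not well above background on either array, so its ratios are bounds. The brighter probe, at chr19:10137760-10137819 (mm9), read 6.88 in WT and 6.18 in KO on array 1, and 7.08 and 6.05 on array 2. Its measured ratios were −0.69 and −1.03, and the bound, taken on the mean of both arrays, was 1.64-fold lower. Array 1 alone read 1.62-fold, so the bound is not a minimum for each array. The second probe, at chr19:10163229-10163288 (mm9), gave a bound of 1.28-fold lower on the mean of both arrays, with ratios of −0.44 and −0.33. Its sequence is shown because it is the Fads2 reading farthest up the transcript.
Fads2, transcript position 595: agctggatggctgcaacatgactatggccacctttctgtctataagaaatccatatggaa

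Of the enzymes that make the chain, Acly differed little between the genotypes. Its brightest probe had a normalized log2 signal of 12.36 in WT and 12.09 in KO on array 1, and 12.43 and 11.96 on array 2. KO was below WT on both arrays, with ratios of −0.27 and −0.47 (−0.37 ± 0.14). The other probe, at transcript position 1498 and above background in KO on array 1 only, was at −0.16 and −0.01 (−0.09 ± 0.11). Fasn had a log2 signal of 7.38 in WT and 7.09 in KO on array 1 and 7.34 and 7.04 on array 2. Its ratios were −0.30 and −0.31 (−0.30 ± 0.01), or 1.23-fold lower. Neither gene passed the 2-fold rule.

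Acaca, the carboxylase that commits acetyl-CoA to fatty acids, was read by 4 probes, of which 2 were at background in KO. The brightest probe had a normalized log2 signal of 9.95 in WT and 8.97 in KO on array 1, and 10.12 and 8.84 on array 2. Its ratios were −0.99 and −1.29 (−1.14 ± 0.21), which misses the rule of size on array 1 alone, and on array 2 alone Acaca would be called lower. The neighbouring probe, which shares a run of 55 bases with it, read −1.01 and −1.20 (−1.10 ± 0.13) and passed on both arrays. With 55 of 60 bases in common, these probes are not independent readings.

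The other 2 Acaca probes lie upstream in the message and were dim. One, at transcript position 81, was not well above background in KO on either array, with ratios of −0.27 and −0.13. Their mean, 1.15-fold lower, is also the bound, because its KO signal was not below the dimmest detected signal. The other, at position 6880, was the 1 probe of the 15 that was not measured, and it read −0.32 and −0.18. Their sequences are given because they are separate readings of Acaca, sharing no run longer than 5 bases with the pair above.
Acaca, chr11:84009021-84009080 (mm9), position 81: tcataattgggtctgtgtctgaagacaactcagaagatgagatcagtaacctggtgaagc
Acaca, chr11:84211638-84211697 (mm9), position 6880: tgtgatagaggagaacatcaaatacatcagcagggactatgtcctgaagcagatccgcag

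Mid1ip1, a small protein that makes acetyl-CoA carboxylase polymerise and raises its activity, had the second lowest ratio of the 10 genes. Its normalized log2 signal was 10.28 in WT and 7.67 in KO on array 1, and 10.38 and 7.75 on array 2. The genotypes were well apart, and the arrays nearly coincided at −2.61 and −2.63 (−2.62 ± 0.01), or 6.13-fold lower. Elovl6, which lengthens palmitate to stearate, the main substrate of the Scd enzymes, came next. Its log2 signal was 10.58 in WT and 8.95 in KO on array 1, and 10.64 and 9.06 on array 2. KO was lower on both arrays at −1.63 and −1.58 (−1.61 ± 0.04), or 3.04-fold. Each of these genes rests on 1 probe.

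Srebf1 was the member with the smallest difference and the largest disagreement between arrays. Its normalized log2 signal was 7.12 in WT and 7.09 in KO on array 1, and 7.19 and 6.74 on array 2. The KO reading was level with WT when KO carried Cy5 and lower when it carried Cy3, with ratios of −0.03 and −0.44 (−0.24 ± 0.29). Its mean ratio was smaller than the technical SD. The array does not read processed SREBP-1 protein.

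Beyond the 10 genes, 9 lists of related genes were read, together 95 genes, of which 77 were measured. Of these, 9 were called lower and 1 higher, with a median of −0.13, where 6.88% of all measured genes were called lower and 2.46% higher. Differences between lists were not tested, and in a list of few genes a count of 0 is near those shares. Among genes of SREBP processing and SREBP-2 targets, 4 of 10 measured genes were lower and the median was −0.86. They included the cholesterol synthesis enzymes Hmgcs1 (−2.43) and Sqle (−1.98), and Srebf2 (−1.34 ± 0.12), which encodes SREBP-2 and whose other probe read −0.69. Insig1 (−0.93), which retains SREBPs in the endoplasmic reticulum, was below 0 without passing. Scap (0.14), the SREBP escort, and Mbtps1 (0.78), the protease that cuts SREBPs first, were above it.

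Among genes of fatty acid activation and glycerolipid synthesis, 4 of 16 were lower and 1 higher, with a median of −0.55. The acyl-CoA synthetases, which charge fatty acids with coenzyme A, went both ways, with Acsl3 (−1.43) and Acsl4 (−1.27) called lower and Acsl6 (1.63) called higher, although the second Acsl6 probe read only 0.73. Agpat4 (−2.0), an acyltransferase, and Fabp5 (−1.24), a fatty acid binding protein, were lower too.

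Of 4 measured genes that supply acetyl-CoA and NADPH, none was called, and Slc25a1 (−0.70), the carrier that brings citrate out of the mitochondrion, was the lowest, while the NADPH enzymes G6pdx (−0.06) and Pgd (−0.03) were near 0. None of the 4 measured partners and regulators of acetyl-CoA carboxylase was called. Among them, Acacb, the mitochondrial carboxylase isoform, was 1.24-fold lower on the mean of both arrays, with KO not well above background on either. Mid1, the binding partner of Mid1ip1, was at −0.13. None of the 6 measured genes of mitochondrial fatty acid synthesis was called (median −0.23).

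None of the 8 measured elongation genes other than Elovl6 was called either. The elongases Elovl7 (−0.75) and Elovl5 (−0.58) were below 0 and Elovl1 (0.07) was near it. Hacd3 (0.52), a dehydratase of the elongation cycle, was above 0. Of 6 measured genes of desaturation and its electron transfer, 1 was lower, the cytochrome b5 reductase Cyb5r1 (−1.54 ± 0.16), whose other probe read −0.70. Its relative Cyb5r3 was at 0.10, the electron carriers Cyb5b and Cyb5a at −0.76 and 0.03, and the ceramide desaturase Degs1 at 0.63.

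Of the 14 measured genes of fatty acid oxidation, a carrier and regulators included, 0 were called and the median was 0.01. Among all genes 6.88% were called lower and 2.46% higher. Cpt1a, the carnitine transferase that admits long chains to the mitochondrion, was at 0.99 and 0.78, and the long-chain dehydrogenase Acadl at −0.89 and −1.03. Among the LXR and ChREBP genes, nuclear receptors and sugar-sensing factors that also drive lipogenesis, none of 9 was called and the median was 0.07. The lists were chosen with results of these arrays known, and their counts describe 1 pair of extracts.

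**Figure D4:**
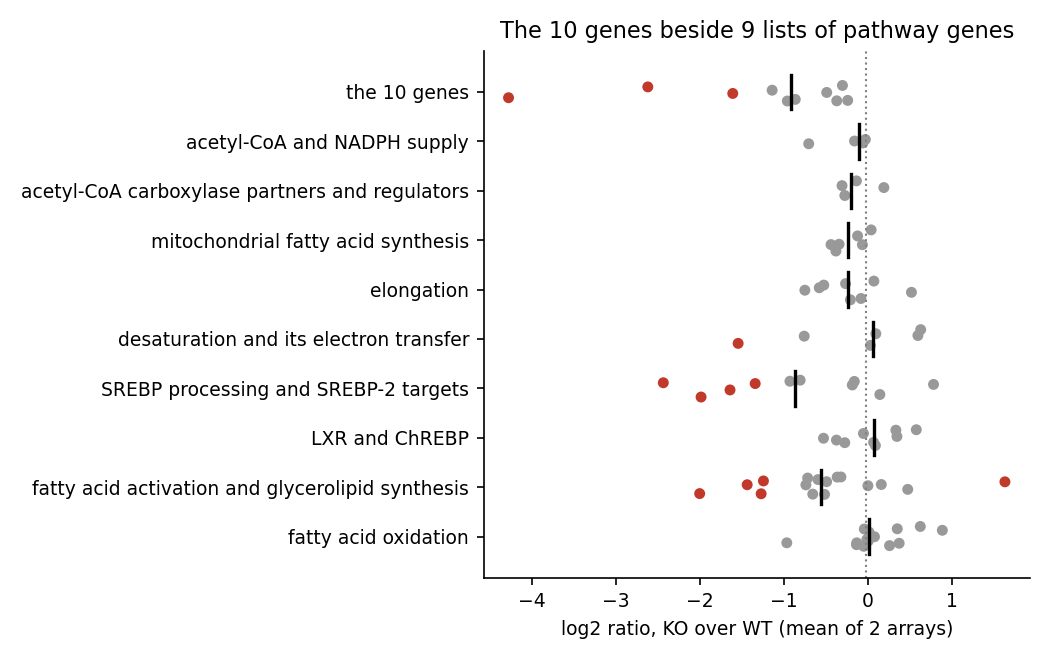
Log2 ratio of KO over WT (horizontal axis, mean of both arrays) for every measured gene of the 10 synthesis genes and of each related list (rows), with called genes in red, a black bar at each median and a dotted line at the median of all genes, −0.02. The medians of the 10 genes (−0.91) and of the SREBP list (−0.86) are the lowest, and that of fatty acid oxidation is at 0.01.

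The 250 bases before the annotated start were read from RefSeq promoter entries (GRCm38.p6), which matched 7 of the 10 genes in 9 entries. Whether each annotated start is one used in these cells was not tested. Scd1, Scd2 and Fads1 had no entry in that table. Both strands were searched for a sterol regulatory element written TCACNCCAC (held by 1.05% of all 32851 such windows), the E-box CACGTG (6.02%), the CCAAT box (33.8%) and the GC box GGGCGG (32.7%). None of the 9 windows held the sterol element or the E-box as written. The window of Fasn held 3 CCAAT boxes and that of Acly 4 GC boxes, while those of Acaca and Elovl6 held none of these letters. The windows of Mid1ip1 and Elovl6, both called lower, are printed, with capitals at the GC boxes, which read CCGCCC on the strand shown.
Mid1ip1, chrX:10717115-10717364 (GRCm38.p6, plus strand): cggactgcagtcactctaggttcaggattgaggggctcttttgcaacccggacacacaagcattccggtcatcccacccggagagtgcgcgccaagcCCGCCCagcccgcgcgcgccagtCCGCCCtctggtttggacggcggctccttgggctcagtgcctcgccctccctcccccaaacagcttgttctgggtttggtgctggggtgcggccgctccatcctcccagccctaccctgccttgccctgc
Elovl6, chr3:129532136-129532385 (GRCm38.p6, plus strand): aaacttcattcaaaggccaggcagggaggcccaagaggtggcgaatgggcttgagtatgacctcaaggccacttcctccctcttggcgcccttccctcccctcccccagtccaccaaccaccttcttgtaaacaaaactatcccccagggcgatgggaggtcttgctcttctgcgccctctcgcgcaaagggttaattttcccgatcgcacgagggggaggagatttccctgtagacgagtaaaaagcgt
A match describes letters only, and the arrays carry no reading of binding.

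Markers of other cells differed between the extracts, and their part in the ratios above was not tested. Of 6 measured T cell markers, 1 was lower, Cd4 at −1.18, with a list median of −0.64. Cd3d (−0.79), Cd3g (−0.49) and Cd2 (−0.89) were below 0 and not called, while Cd3e (0.09) and Lck (0.16) were above 0 on both arrays. The summed linear signal of the T cell markers was 79208 to 79703 in WT and 56241 to 60451 in KO. Of 7 measured markers of NK, CD8 T and gamma-delta T cells, 5 were called higher, up to 4.03 for the chemokine Xcl1, and the summed signal was 946 to 958 in WT and 4266 to 4337 in KO. Of the uncalled markers in that list, Cd8a was at 0.67 and Cd8b1 at −0.55. Of 8 measured myeloid and dendritic markers, 4 were higher, up to 4.35 for Fcer1g, with sums of 8679 to 9458 in WT and 15451 to 17073 in KO. Cst3 was below 0 at −0.49. The largest signal in that sum, in both genotypes, was that of Itgam, which was at 0.70 and not called. Of 5 B cell markers, 1 was measured, Cd79b at 0.62.

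Most markers of fat cells, which express this pathway strongly, did not pass the filter for a measured probe. Of 8 adipocyte markers, Retn (−0.07) and Lipe (−0.04) were measured and Adipoq, Plin1, Fabp4, Cidec, Lep and Pck1 were not. The summed signal of Retn and Lipe alone was 203 to 216 in WT and 195 to 208 in KO. Those values include the background-correction offset of 50 added to each signal, so they are near the floor.

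The count of called genes moved with the processing. Scd2, Mid1ip1 and Elovl6 passed the rule of size under every alternative listed in the closing section that kept a 2-fold rule, and Acaca, Scd1 and Fads2 passed as well with the processed signals, with an offset of 1 (Acaca −1.20, Scd1 −1.33), and with a 1.5-fold rule, against 13.5% of all measured genes lower and 6.78% higher at that fold. On array 2 alone, 5 genes passed, with Acaca (−1.29) and Fads2 (−1.03) added. The KO reading of Fads2 was at background on both arrays, so its ratios in these settings are not measured folds, although each of these counts includes it. Centring each array on its median in place of loess moved the median of all genes to −0.37 and, relative to that, the 10 genes had a median of −0.71, with Scd2 at −4.50, Mid1ip1 at −2.69, Elovl6 at −1.74, Acly at −0.60, Fasn at −0.07 and Srebf1 at 0.04. Before that shift was taken off, Acly was at −0.97, against −0.37 with loess. Fasn, with a dimmer probe, was at −0.45 against −0.30, and Srebf1, also dimmer, at −0.33 against −0.24. The move thus differed between genes. Taking 1 value off all of them leaves the ratios of Fasn and Srebf1 in that setting unsettled. With that centring 881 of all genes were called lower and 111 higher, so that 88.8% of the called genes were lower, against 73.7% with loess.

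**Figure D5:**
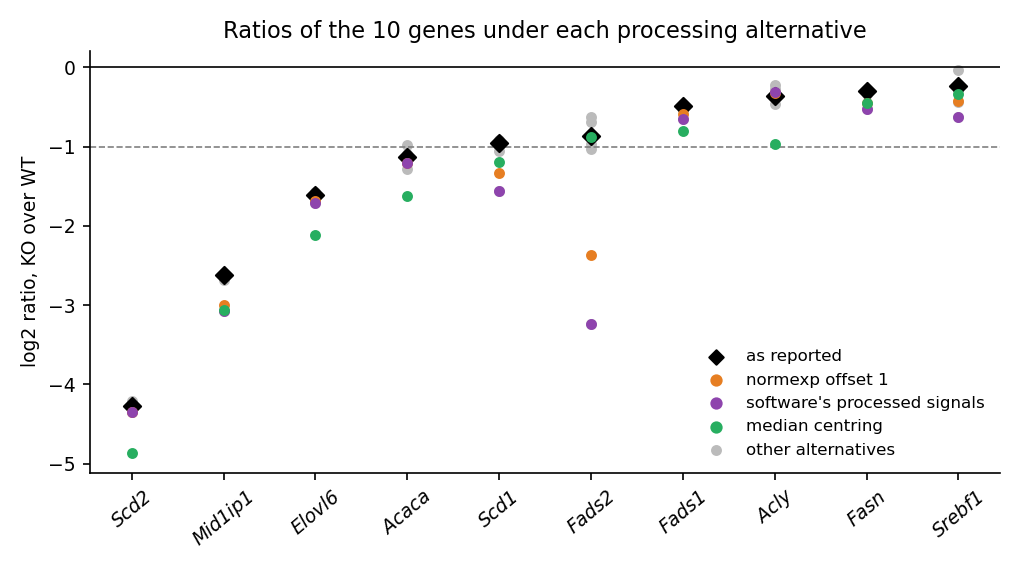
Log2 ratio of KO over WT (vertical axis) for each of the 10 genes (horizontal axis), with 1 symbol per processing alternative. A dashed line marks −1, the 2-fold mark. Scd2, Mid1ip1 and Elovl6 stay below the line in each alternative shown, and Fads2, whose KO signal was at background so that its values are not measured folds, ranges from −3.24 to −0.62.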

How the data were processed

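Each array's scanner output was used. Per the file headers, spots were extracted with Agilent Feature Extraction 10.7.3.1, while the submitters' processing notes name 10.5.1.1. The deposited values used as input were the mean and background intensity of each spot in Cy5 and Cy3. The deposited series matrix holds, for each of 44397 spots, the log10 ratio of red over green that the same software wrote (equal within 1e-09), with a column median of 0. Labelled cRNA (400 ng) was hybridised for 17 h at 65 °C, per the labels' protocols.

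Background was corrected with normexp (offset 50) and each array was normalized by loess (span 0.3, 1377 control spots at weight 0) with limma 3.58.1 in R 4.3.3. The labelled dyes gave each ratio its direction, KO over WT, outlier spots were left out, and no spot was saturated. The 2 arrays are a technical dye swap of 1 extract pair, which their number limits to a technical SD. The script was tested on simulated data. A gene is represented by its brightest probe. A probe at background in KO on both arrays is given with a bound. The bound sets the mean of WT against the mean of, per array, the higher of the dimmest detected signal and the probe's own. It is not a minimum for each array, and it equals the mean ratio where the probe's own signal was the higher on both. Names came from the array file and RefSeq (GRCm38.p6) through accession (26055 probes), symbol (3195) or synonym (930), and 9249 kept the file's name. Probe coordinates are those of the file (mm9). The genes named are all 10 synthesis genes, every listed gene past the rule of size, and the paralogs, partners and regulators of the 10, except that some listed genes are counted but not reported here by name. The genes and lists were chosen with earlier results of these data known. Alternatives were another offset, no background subtraction, the software's processed signals, the series matrix, median centring, other filters and probe rules, each array alone and a 1.5-fold rule.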

Additional observations from a re-analysis of the deposited data

How the results depend on the processing

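No paired analysis was possible because the arrays hold a single extract of each genotype. None of the 155 values recomputed for the 10 genes and their summaries reversed, and 46 moved beyond the technical spread (or 1.5 times a count). The others are no measure of stability. With 2 arrays, a gene's value on 1 array always lies within the SD of the mean. Several settings on filters left the values as they were, and the series matrix repeats the ratios of the processed signals. Median-centred values were counted with the shift of −0.37 in the median of all genes, relative to which Srebf1 was at 0.04. Of the 10 genes, 3 were called lower in the reported setting and 6 with a normexp offset of 1, with the processed signals, with the series matrix, and with a 1.5-fold rule; the number called higher was 0 in each. The median of −0.91 became −1.27 with offset 1, −1.38 with processed signals and with the series matrix, and −1.08 with median centring. The difference of Scd2 and Scd1, −3.32, became −3.02, −2.79, −2.79 and −3.68 in the same settings. With each array alone, the count was 3 to 5, the median −1.01 to −0.81 and the difference −3.42 to −3.22. Of all measured genes, 9.40% were called lower with offset 1 and 10.9% with processed signals, against 6.88%. The cause of each move was not tested. Signal over background limits Fads2, whose KO signal was at background on both arrays and which is in each count of 5 or 6.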
